A study of Homo sapiens with 16 samples.

Results

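The messenger RNA of 38 genes of the endoplasmic reticulum (ER) chaperone machinery and the unfolded protein response was followed in the pancreatic cancer cell lines MiaPaCa2 (Mia-PaCa-2 in the labels) and PANC1 (PANC-1 in the labels). The genes were chosen by name as sensors of the response, chaperones, oxidoreductases and factors of ER-associated degradation, and they were 38 of 63677 gene identifiers counted. Each line was cultured in DMEM with serum and kept for 24 h as control, with 40 nM gemcitabine, with 50 µM genistein or with both drugs together, with 2 libraries per group and 16 in all. Gemcitabine is a nucleoside analogue that interferes with DNA replication, and genistein is a plant isoflavone with estrogenic activity. The methods call the 2 libraries of a group biological replicates, but no source names the separate cultures, so p values measure the spread between these libraries. Whether control cells received the solvent of genistein is not given in the sources used here.

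The ER folds secreted and membrane proteins with the help of chaperones that bind exposed hydrophobic stretches, lectins that read sugar chains and enzymes that form disulfide bonds. When unfolded proteins accumulate, the sensors PERK (EIF2AK3), IRE1 (ERN1) and ATF6 are released from the chaperone BiP (HSPA5). PERK slows translation and favors ATF4 and CHOP, IRE1 splices the messenger of XBP1, and cleaved ATF6 and spliced XBP1 switch on genes for chaperones and for degradation of misfolded proteins. The exocrine pancreas, a tissue of heavy secretion, is known for its dependence on this response.

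The libraries held between 12943482 and 31991860 counted reads. Of the 38 members, 37 had a mean above 1 FPKM (fragments per kilobase of transcript, scaled to library size) in MiaPaCa2 control cells and 38 in PANC1 control cells. The keratins KRT8 and KRT18 ran from 369 to 1080 FPKM over all libraries. EPCAM was listed at 0 in every MiaPaCa2 library and CDH1 was at most 0.0213 FPKM there, while PANC1 had 7.71 to 12.8 FPKM of EPCAM. MANF and HYOU1 each had a further identifier that was at 0 in every library and was not used.

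Promoter sequences were looked up because the response acts on its targets through short elements. RefSeq (GRCh38.p14) gave a window from 250 bases before to 50 bases after the start site for 27 of the 38 members. The ER stress response element (ERSE, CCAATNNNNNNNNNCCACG) was searched on both strands and lay in the windows of 4 members, namely HSPA5, HSP90B1, CALR and CRELD2. That was 14.8% of the member windows against 0.0769% of 35116 windows in the table. The second form of the element (ERSE-II) was searched in the same way and lay in HYOU1, HERPUD1 and SDF2L1, which was 11.1% against 0.0541%. The XBP1-type element TGACGTGG was found in HYOU1 alone, where it overlaps a copy of ERSE-II. The C/EBP-ATF composite TGATGNAA, a site of the ATF4 branch, was found in HERPUD1 alone, at 3.7% of member windows against 3.62% of all windows. The members were chosen by name as genes of this response, so their higher shares of its elements are a description and not a test. A match describes letters in a window and is not evidence of binding. The bases before the start site are shown 5′ to 3′ for 5 members that carry an element and whose messenger is described below, with the matched bases in capitals. They lie at chr9:125241344-125241593 (minus strand), chr11:119057206-119057455 (minus strand), chr19:12938359-12938608 (plus strand), chr16:56931892-56932141 (plus strand) and chr22:49918384-49918633 (plus strand).
HSPA5: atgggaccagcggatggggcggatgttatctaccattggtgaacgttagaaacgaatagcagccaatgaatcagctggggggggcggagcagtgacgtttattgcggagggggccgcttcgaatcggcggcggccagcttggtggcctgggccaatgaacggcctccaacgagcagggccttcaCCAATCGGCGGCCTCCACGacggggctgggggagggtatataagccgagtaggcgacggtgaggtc
HYOU1: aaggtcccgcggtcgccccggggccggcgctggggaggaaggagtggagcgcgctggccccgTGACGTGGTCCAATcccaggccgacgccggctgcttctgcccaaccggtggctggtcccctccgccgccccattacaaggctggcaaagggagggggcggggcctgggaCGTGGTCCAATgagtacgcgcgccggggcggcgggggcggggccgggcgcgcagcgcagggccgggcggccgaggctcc
CALR: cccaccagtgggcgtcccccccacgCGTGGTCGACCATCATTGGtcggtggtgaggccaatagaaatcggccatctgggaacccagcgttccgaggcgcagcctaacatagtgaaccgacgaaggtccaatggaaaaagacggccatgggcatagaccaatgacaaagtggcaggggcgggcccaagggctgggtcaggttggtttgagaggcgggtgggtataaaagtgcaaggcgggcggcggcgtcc
HERPUD1: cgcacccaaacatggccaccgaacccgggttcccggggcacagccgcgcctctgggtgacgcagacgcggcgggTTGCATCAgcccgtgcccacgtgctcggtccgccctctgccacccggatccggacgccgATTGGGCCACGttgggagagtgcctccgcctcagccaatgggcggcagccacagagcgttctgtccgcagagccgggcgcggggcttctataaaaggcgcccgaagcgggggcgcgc
CRELD2: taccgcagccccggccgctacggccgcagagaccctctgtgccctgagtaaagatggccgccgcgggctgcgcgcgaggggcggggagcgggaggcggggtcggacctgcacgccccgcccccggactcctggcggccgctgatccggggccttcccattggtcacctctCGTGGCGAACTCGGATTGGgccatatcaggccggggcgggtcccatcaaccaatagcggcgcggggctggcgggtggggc
In HSPA5 the element begins at base -66 from the start site, whereas in CALR it begins at -225 and in CRELD2 at -80. HERPUD1 carries the composite at -176 and ERSE-II at -117.

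In untreated cells the members covered a wide range of levels. The disulfide isomerase P4HB was the most abundant, at 1000 ± 37.3 FPKM in MiaPaCa2 and 1600 ± 202 FPKM in PANC1 (SD, n = 2). The lectin chaperones followed, with CALR at 867 ± 2.69 and 857 ± 83.6 FPKM, and CANX at 685 ± 19.4 and 497 ± 61.7 FPKM. In PANC1 the next members, PDIA4, SEC61A1, PDIA3 and PDIA6, lay between 258 and 280 FPKM, closer together than the SD of PDIA4 (28.3 FPKM). The sensors were below the median member of 50.2 FPKM in MiaPaCa2, with ATF6 at 18.2 ± 0.502, EIF2AK3 at 6.38 ± 1.43 and ERN1 at 2.61 ± 0.648 FPKM. In all, 13 members exceeded 100 FPKM in MiaPaCa2 and 14 in PANC1.

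The untreated lines differed in 20 of 38 members, with 13 higher and 7 lower in PANC1. A gene was called where its adjusted p (Benjamini-Hochberg over all genes tested, limma-voom) did not exceed 0.05, its log2 fold change was 0.4 or more in size and its mean was over 1 FPKM in treated cells (between untreated lines, in at least 1 line). The 20 members were 52.6% of the list, against 52.3% of all genes called in this comparison (27.9% higher and 24.3% lower), so the share was that of the background. Of the 9 ER-associated degradation members, 7 were called higher in PANC1 and 1 lower. The 7 include DERL3, described below, and OS9, which was not called after GC correction, nor was HERPUD1, the 1 lower. A separate list of 25 other degradation genes had 10 higher and 6 lower, with a median of -0.09 against 0.06 over all genes. Among the 9 members the rhomboid-like channel protein DERL1 differed by 1.35 ± 0.09 on the log2 scale (SE, adjusted p = 1.9e-08), the ubiquitin ligase SYVN1 by 1.26 ± 0.15 and its partner SEL1L by 0.96 ± 0.16. The ER membrane protein WFS1 differed by 1.67 ± 0.23 (adjusted p = 2.2e-05) and the BiP partner HYOU1 by 1.19 ± 0.08 (adjusted p = 4.6e-08).

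DERL3, a further derlin, had 0 counts in every MiaPaCa2 library and 7 to 53 counts in PANC1 libraries. Against a floor of 3 counts per library its level in PANC1 control cells was at least 6.93-fold higher. Its exons overlap those of SMARCB1 on the opposite strand over 77% of their length, and the strand setting of the counting is not given in the sources used here, so the source of these reads is uncertain. In the other direction, the sensor ATF6 was lower in PANC1 by -0.93 ± 0.11 (adjusted p = 4.9e-06), the nucleotide exchange factor SIL1 by -0.77 ± 0.14 and the transcription factor XBP1 by -0.60 ± 0.11. BiP itself differed by -0.15 ± 0.06, below the fold threshold.

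**Figure D1:**
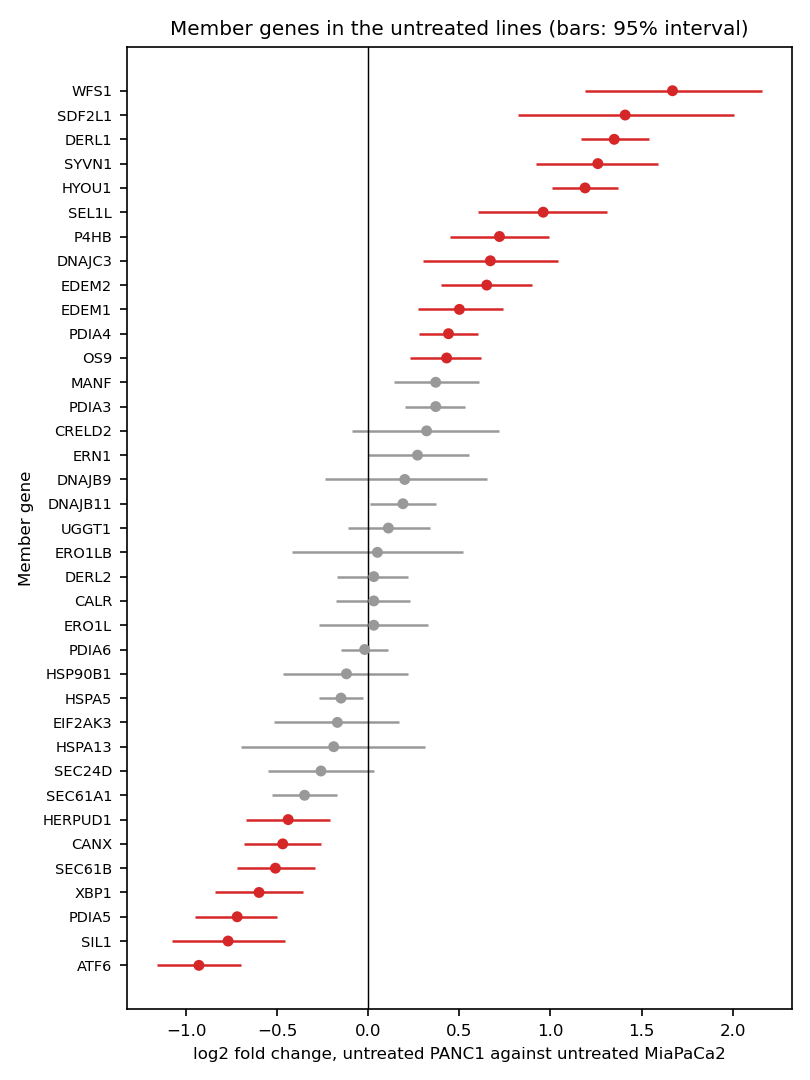
Each point is the log2 fold change of a member in untreated PANC1 against untreated MiaPaCa2 cells with its 95% interval, red where the gene was called; DERL3 is left out because MiaPaCa2 had no counts. WFS1 stands at 1.67 at the top and ATF6 at -0.93 at the bottom.

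The share of members called with a drug was set beside that of all genes. In MiaPaCa2, gemcitabine raised 8 members and lowered 1 of 37 tested, which was 24.3% of the members against 29.6% of all 16064 genes (15% higher and 14.6% lower). Genistein raised 1 member, 2.7% against 8.31% of all genes (4.18% higher and 4.13% lower). Both drugs together raised 11 and lowered 2 against control, 35.1% against 40.5% (20.3% higher and 20.2% lower). In PANC1, gemcitabine raised 2 and lowered 1 of 38 members, 7.89% against 7.52% of 16909 genes (4.49% higher and 3.03% lower). Both drugs raised 3 and lowered 1, 10.5% against 17.1% (10.2% higher and 6.9% lower). Among these comparisons with control, the share of members was near that of all genes for gemcitabine in PANC1 and below it for the others. The 3 PANC1 calls with gemcitabine became 0 without either genistein or either gemcitabine library. By direction, 21.6% of MiaPaCa2 members were higher and 2.7% lower with gemcitabine, and 29.7% higher and 5.41% lower with both drugs. There the higher share lay above that of all genes and the lower share below it. The comparisons of a line share its control libraries.

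The median member changed by 0.11 under gemcitabine in MiaPaCa2 and by 0.17 under both drugs, against -0.01 over all genes in each. In PANC1 it was -0.02 under gemcitabine and -0.04 under both drugs, against 0.03 and 0.01. With genistein alone no PANC1 member was called by limma-voom, against 0.0591% of all genes (0.0591% higher and 0% lower). At an unadjusted p under 0.05 there were 10 of 38 PANC1 members under genistein (7 higher, 3 lower), beside 19.2% of all genes. There edgeR called 0 members and DESeq2 called 1, and they called 12 and 739 of all genes. The 95% intervals of 35 of the 38 members lay within 1 on the log2 scale and those of 13 within 0.4, so smaller changes were not resolved. In bulk libraries a change in RNA per cell and a change in the cells that remain cannot be told apart.

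**Figure D2:**
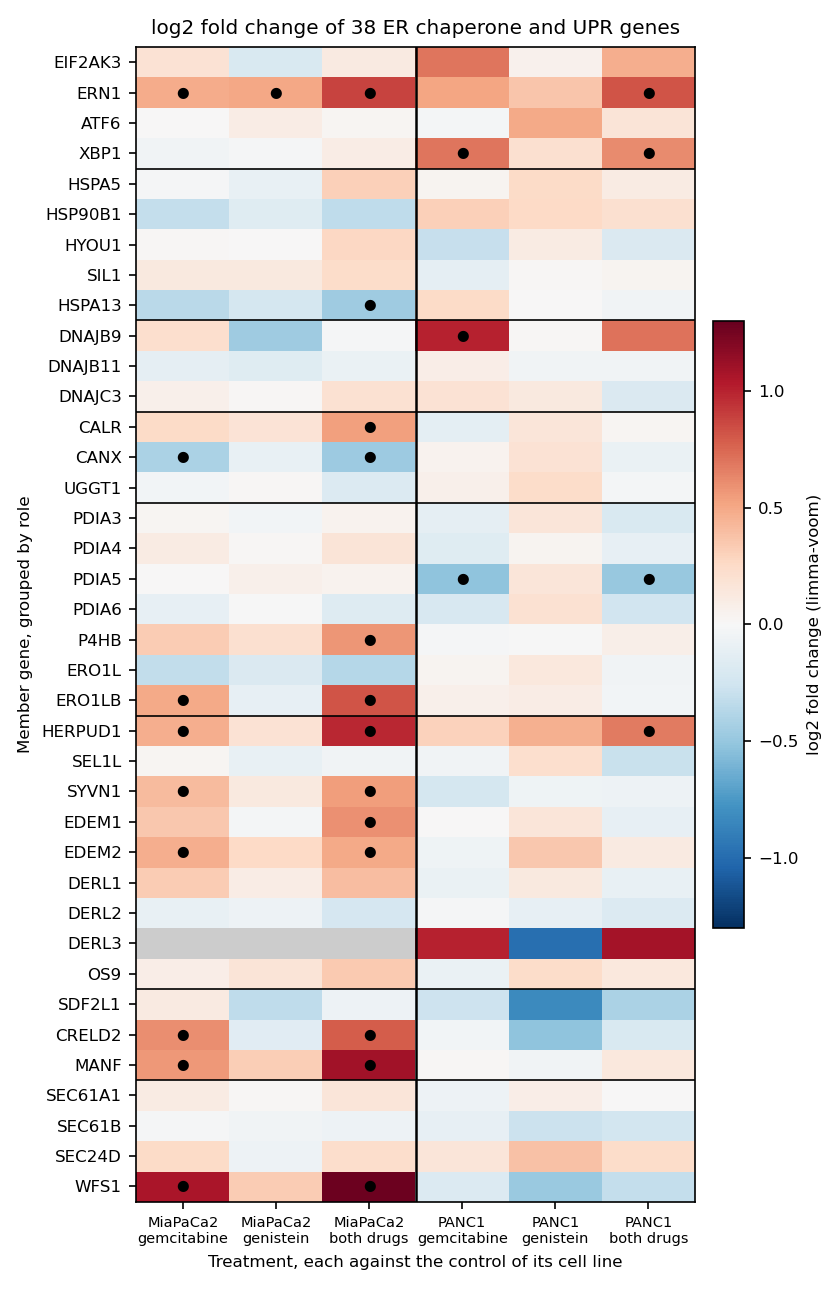
Color gives the log2 fold change of each member (rows, grouped by role) for each line and treatment against the control of that line; a black dot marks a called gene and gray a gene that was not tested. Most dots lie in the MiaPaCa2 columns, at WFS1, MANF, HERPUD1 and CRELD2 among others, and the genistein columns hold 1 dot, at ERN1.

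Of the sensors, ERN1, which encodes the kinase and nuclease IRE1, was called in both lines. In MiaPaCa2 it had 14.4 and 14.4 normalized CPM (counts scaled to TMM library sizes) in control cells, 22.2 and 18.2 with gemcitabine, 21.3 and 19.8 with genistein and 28.2 and 25.1 with both. In PANC1 it had 16.9 and 18.1 in control cells, 24.9 and 24.9 with gemcitabine, 23.9 and 21.2 with genistein and 31.8 and 30 with both. On this scale every treated library lay above both controls of its line, and the combination was highest in each line. In FPKM the groups overlapped with a single drug: MiaPaCa2 controls had 3.07 and 2.15 against 3.3 and 2.37 with gemcitabine, and PANC1 controls 3.89 and 3.51 against 6.57 and 2.27 with genistein. The combination libraries were above the controls in FPKM as well, at 6.41 and 5.33 in MiaPaCa2 and 9.45 and 7.65 in PANC1. By limma-voom, MiaPaCa2 gave log2 fold changes of 0.48 ± 0.14 with gemcitabine (adjusted p = 0.0173), 0.50 ± 0.14 with genistein (adjusted p = 0.0387) and 0.88 ± 0.14 with both (adjusted p = 0.0002, limma-voom). In PANC1 the combination gave 0.82 ± 0.13 (adjusted p = 0.00522), and gemcitabine gave 0.51 ± 0.13 with an adjusted p of 0.0517, just outside the threshold. The genistein call in MiaPaCa2 was lost without either genistein, either gemcitabine or either control library, the gemcitabine call was lost without gemcitabine replicate 1 or either control library, and the value under gemcitabine fell to 0.39 after correction for GC content. Limma-trend on FPKM called ERN1 with neither single drug in MiaPaCa2 and not with both drugs in PANC1.

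XBP1 encodes the transcription factor made active by IRE1, and it rose only in PANC1 by this test. PANC1 control cells had 35.9 and 30.6 FPKM, gemcitabine 53.3 and 62.2, genistein 37.8 and 38.6 and both drugs 54.2 and 56.6. MiaPaCa2 libraries ran from 46.7 to 55.3 FPKM. In PANC1 the libraries with gemcitabine stood well above the controls. The change in PANC1 was 0.70 ± 0.12 with gemcitabine (adjusted p = 0.0168) and 0.61 ± 0.12 with both drugs (adjusted p = 0.0139), with -0.05 ± 0.09 and 0.10 ± 0.09 in MiaPaCa2. The response to gemcitabine differed between the lines by 0.64 ± 0.15 (adjusted p = 0.0164). After GC correction the gemcitabine change was 0.62 and remained called. The gemcitabine call was lost without either genistein or either gemcitabine library, and the combination call without either genistein library, both-drugs replicate 2 or control replicate 2. The counts do not separate the spliced from the unspliced form.

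ERN1 lies at chr17:62116440-62208179 on the minus strand and XBP1 at chr22:29190543-29196585 on the minus strand (GRCh37). EIF2AK3, the PERK gene, had 15.3 and 20.7 normalized CPM in PANC1 control cells and 26.8 and 31.7 with gemcitabine. The libraries did not overlap, and the change of 0.70 ± 0.19 had an adjusted p of 0.0596. ATF6, the membrane-bound factor that is cut in the Golgi, had 62.2 and 70.7 in PANC1 control cells and 88.3 and 99 with genistein, a change of 0.49 ± 0.13 with an adjusted p of 0.139. In MiaPaCa2 ATF6 changed by 0.00 ± 0.10 and 0.10 ± 0.10 with the single drugs.

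HSPA5, the BiP chaperone, moved little with either drug alone. In MiaPaCa2 it had 752 and 753 normalized CPM in control cells, 732 and 751 with gemcitabine, 693 and 713 with genistein and 955 and 911 with both. The combination libraries stood above all others of the line. The combination gave 0.31 ± 0.07 against control (adjusted p = 0.00191), which is below the fold threshold, and gemcitabine gave -0.02 with a 95% interval from -0.17 to 0.12. In PANC1 HSPA5 had 674 and 689 in control cells and 803 and 818 with genistein, a change of 0.25 ± 0.06 with an adjusted p of 0.131. HYOU1 (GRP170, an exchange factor of BiP) passed the adjusted p in MiaPaCa2 with both drugs at 0.27 ± 0.07, again below the fold threshold. HSP90B1, the ER form of HSP90, had 507 and 495 in MiaPaCa2 control cells and 399 and 408 with gemcitabine, a change of -0.31 ± 0.10 (adjusted p = 0.0227) that also stayed below the fold threshold. HSPA13, a further HSP70 protein, fell with both drugs in MiaPaCa2, from 48.6 and 47.4 to 43.3 and 28.4. The change of -0.46 ± 0.18 (adjusted p = 0.0434) became 0.22 after GC correction, and the call was also lost with edgeR and DESeq2 and without both-drugs replicate 2, either gemcitabine or either control library.

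DNAJB9 (chr7:108210311-108215294, plus strand), an ER J-protein that holds IRE1 in check, rose in PANC1 with gemcitabine. Control cells had 12.1 and 18.7 normalized CPM, gemcitabine 28.2 and 32.9, genistein 16.3 and 14.7 and both drugs 28.9 and 21.7. Both gemcitabine libraries exceeded both controls, which themselves differed widely. The change was 1.0 ± 0.23 (adjusted p = 0.0375) with gemcitabine and 0.71 ± 0.23 (adjusted p = 0.0705) with both drugs. The gemcitabine call was lost without either genistein, either gemcitabine or control replicate 1. It was also lost with limma-trend on FPKM and when replicate number was added to the model as a block. In MiaPaCa2 it had 14.9 and 11.7 in control cells and 15.4 and 15.6 with gemcitabine, a change of 0.22 ± 0.16, which was 0.59 and called after GC correction. The other J-proteins, DNAJB11 and DNAJC3, were not called with any treatment.

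Of the lectin chaperones, CALR (calreticulin) rose with both drugs in MiaPaCa2. It had 1280 and 1300 normalized CPM in control cells, 1530 and 1540 with gemcitabine, 1480 and 1450 with genistein and 1790 and 1940 with both. The libraries of each treatment stood above both controls. The changes were 0.25 ± 0.07 with gemcitabine (adjusted p = 0.0103, below the fold threshold) and 0.53 ± 0.07 with both drugs (adjusted p = 3.2e-05). Its membrane counterpart CANX (calnexin) fell, from 1400 and 1380 in control cells to 1030 and 1060 with gemcitabine and 1100 and 910 with both. The changes were -0.41 ± 0.09 (adjusted p = 0.00265) and -0.47 ± 0.09 (adjusted p = 0.00062). Neither CALR nor CANX was called after GC correction. The gemcitabine call of CANX was kept in 4 of 11 alternatives. It was also lost with DESeq2, its size factors, library size alone, limma-trend on FPKM and without gemcitabine replicate 1. The combination call of CANX was kept in 6 of 11, and was also lost with library size alone, limma-trend on FPKM and without both-drugs replicate 2. The glucosyltransferase UGGT1, which returns misfolded glycoproteins to the lectins, was not called.

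Among the oxidoreductases, P4HB, which forms and rearranges disulfide bonds, rose with both drugs in MiaPaCa2. It had 758 and 807 normalized CPM in control cells, 1000 and 962 with gemcitabine, 940 and 869 with genistein and 1100 and 1230 with both. The change was 0.57 ± 0.08 with both drugs (adjusted p = 7.3e-05) and 0.33 ± 0.08 with gemcitabine (adjusted p = 0.00578), below the fold threshold. It was not called after GC correction. ERO1LB, which oxidizes the isomerases, rose in MiaPaCa2, with 16.6 and 13.8 in control cells, 21.7 and 21.1 with gemcitabine and 30.4 and 23.9 with both. The changes were 0.49 ± 0.16 (adjusted p = 0.0246) and 0.82 ± 0.15 (adjusted p = 0.00069), and the values after GC correction were larger, at 0.83 and 1.33. The gemcitabine call of ERO1LB was lost without either gemcitabine or either control library, and limma-trend on FPKM called it with neither treatment.

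PDIA5 (chr3:122785872-122944074, plus strand), a disulfide isomerase, was the only member called lower with gemcitabine in PANC1. It had 39.3 and 37.8 normalized CPM in control cells, 28 and 25.9 with gemcitabine, 43.5 and 42.5 with genistein and 26 and 29 with both. All libraries with gemcitabine lay below all libraries without it. The changes were -0.52 ± 0.12 with gemcitabine (adjusted p = 0.0404) and -0.49 ± 0.12 with both drugs (adjusted p = 0.0291), while MiaPaCa2 gave 0.00 ± 0.10 with gemcitabine. The gemcitabine call was lost without either genistein, either gemcitabine or control replicate 1, and the combination call without any PANC1 library except control replicate 2. Both calls were also lost with limma-trend on FPKM and when replicate number was added to the model as a block. PDIA3, PDIA4, PDIA6 and ERO1L were not called with any treatment in either line.

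Of the ER-associated degradation genes, HERPUD1 (chr16:56966054-56978776, plus strand), which organizes the ubiquitin ligase complex, was called in both lines. In MiaPaCa2 it had 47.3 and 43.8 normalized CPM in control cells, 63.5 and 63.1 with gemcitabine, 54.7 and 50.1 with genistein and 89.3 and 90.8 with both. In PANC1 it had 35.2 and 32.9 in control cells, 41.8 and 41.8 with gemcitabine, 46.3 and 46.7 with genistein and 51.4 and 57.6 with both. The treated libraries of each line all exceeded its controls, and the combination was highest. MiaPaCa2 gave 0.47 ± 0.10 with gemcitabine (adjusted p = 0.00249) and 0.98 ± 0.10 with both drugs (adjusted p = 4.8e-06), and these calls held without any library in turn. PANC1 gave 0.68 ± 0.12 with both drugs (adjusted p = 0.00686) and 0.46 ± 0.12 with genistein alone (adjusted p = 0.135).

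SYVN1, EDEM2 and EDEM1 rose in MiaPaCa2. SYVN1, the ubiquitin ligase HRD1, had 36 and 39.2 normalized CPM in control cells, 55 and 45.3 with gemcitabine and 52.2 and 56.6 with both, with changes of 0.41 ± 0.12 and 0.54 ± 0.12. EDEM2, which helps to trim sugar chains of misfolded proteins, had 39.8 and 45.8 in control cells, 59.2 and 58.7 with gemcitabine and 55.8 and 63.7 with both, with changes of 0.47 ± 0.11 and 0.49 ± 0.11. All treated libraries of these genes exceeded the controls, but neither gene was called after GC correction. EDEM1 had 43.7 and 41.8 in control cells, 54.3 and 55 with gemcitabine and 68.1 and 60.9 with both, and it was called with both drugs at 0.59 ± 0.10 (adjusted p = 0.00038) and also after GC correction, at 0.57. Without control replicate 1 the gemcitabine calls of SYVN1 and EDEM2 and the combination call of EDEM2 were lost, and the gemcitabine call of SYVN1 was also lost without gemcitabine replicate 1. DERL1 reached 0.40 ± 0.10 with both drugs in MiaPaCa2 (adjusted p = 0.00367), just short of the fold threshold, and SEL1L, DERL2 and OS9 were not called with any treatment.

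MANF and CRELD2, small secreted proteins induced by ER stress, rose in MiaPaCa2. MANF had 46.7 and 44.4 normalized CPM in control cells, 62.6 and 72.4 with gemcitabine, 57.7 and 56.3 with genistein and 94.5 and 100 with both. In PANC1 all 8 libraries ran from 55.6 to 65.7. The treated libraries of MiaPaCa2 thus exceeded the controls in every group, while in PANC1 those with a single drug overlapped the controls and those with both lay above them. The changes in MiaPaCa2 were 0.56 ± 0.10 with gemcitabine (adjusted p = 0.00128) and 1.09 ± 0.10 with both drugs (adjusted p = 3.5e-06), and in PANC1 0.02 ± 0.11 and 0.14 ± 0.11. After GC correction they were 0.39 and 0.83 in MiaPaCa2, the former just below the fold threshold.

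CRELD2 had 40 and 47.1 normalized CPM in MiaPaCa2 control cells, 66.5 and 64.8 with gemcitabine, 43.1 and 36.1 with genistein and 69.2 and 80.2 with both. Libraries with gemcitabine exceeded those without it. The changes were 0.60 ± 0.12 (adjusted p = 0.00225) with gemcitabine and 0.79 ± 0.12 (adjusted p = 0.00018) with both drugs, and the GC-corrected values were 0.33 (not called) and 0.44 (called). The gemcitabine call was lost without control replicate 1. SDF2L1, a partner of BiP and its J-proteins, was not called with any treatment.

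WFS1 (chr4:6271576-6304992, plus strand), an ER membrane protein of calcium balance that is mutated in Wolfram syndrome, had the largest change with gemcitabine in MiaPaCa2 among members. In MiaPaCa2 it had 7.19 and 7.57 FPKM in control cells, 18.3 and 15.9 with gemcitabine, 9.87 and 8.47 with genistein and 16.5 and 22.3 with both. In PANC1 it had 28.4 and 23.4 FPKM in control cells, 24.6 and 21.9 with gemcitabine, 18.8 and 16.1 with genistein and 17.6 and 26.2 with both. MiaPaCa2 libraries with gemcitabine all exceeded those without, whereas PANC1 groups with gemcitabine overlapped the controls. The changes in MiaPaCa2 were 1.06 ± 0.15 with gemcitabine (adjusted p = 0.00017) and 1.27 ± 0.15 with both drugs (adjusted p = 1.7e-05), and in PANC1 -0.18 ± 0.20 and -0.31 ± 0.20. The GC-corrected values in MiaPaCa2 were 0.73 and 0.88, both called. The translocon subunits SEC61A1 and SEC61B and the coat protein SEC24D were not called with any treatment.

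**Figure D3:**
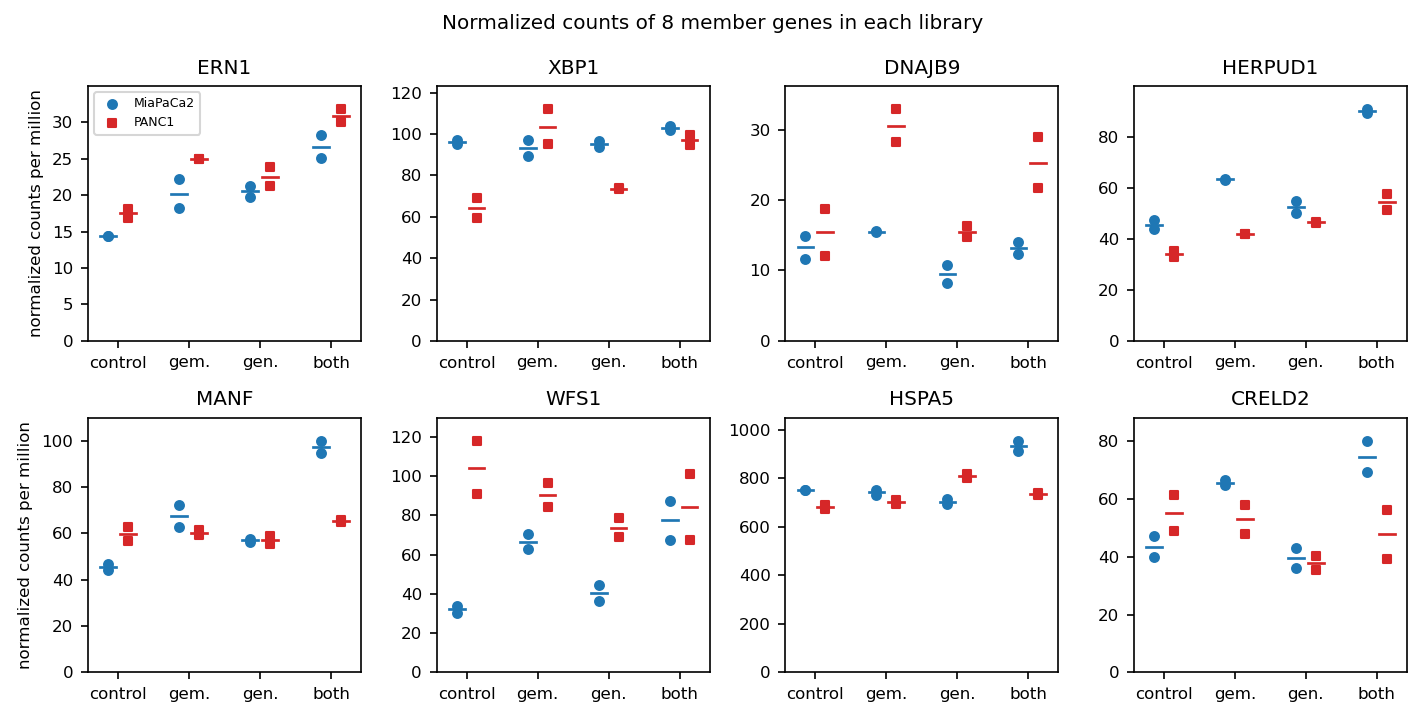
Normalized CPM of 8 members in each library, with MiaPaCa2 as blue circles, PANC1 as red squares and the mean of 2 libraries as a bar; gem. is gemcitabine and gen. genistein. XBP1 and DNAJB9 are raised with gemcitabine in PANC1, and MANF and WFS1 in MiaPaCa2.

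Genistein added to gemcitabine raised 2 members above gemcitabine alone in MiaPaCa2, HERPUD1 by 0.51 ± 0.09 (adjusted p = 0.00647) and MANF by 0.53 ± 0.10 (adjusted p = 0.00689). That was 5.41% of members against 5.88% of all genes (4.05% higher and 1.83% lower). HSPA5 and CALR passed the adjusted p at 0.33 ± 0.07 and 0.28 ± 0.07, below the fold threshold. The HERPUD1 call was lost without either gemcitabine library and that of MANF without gemcitabine replicate 1. In PANC1 no member was called for this comparison by limma-voom, edgeR or DESeq2, against 0.0177% of all genes (0.0118% higher and 0.00591% lower) by limma-voom. There 3 of 38 members had an unadjusted p under 0.05, beside 13.4% of all genes. The gemcitabine by genistein interaction, which asks whether the combination departs from the sum of the single responses on the log2 scale, was called for 0 members in MiaPaCa2 (against 0.0249% of all genes, 0.00623% higher and 0.0187% lower) and 0 in PANC1 (against 0%) by limma-voom, edgeR and DESeq2. At an unadjusted p under 0.05 there were 3 of 37 members in MiaPaCa2, beside 8.38% of all genes, and 1 of 38 in PANC1, beside 4.92%.

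Whether a response differed between the lines was tested in a model of all 16 libraries. The gemcitabine response differed in 10 of 38 members, 26.3% against 15.3% of all genes. It was lower in PANC1 for 9 members (23.7% against 9.06%) and higher for 1 (2.63% against 6.21%). By limma-voom the list thus held more calls than the background share, and its median difference was -0.23 against -0.08 over all genes. With limma-trend, 4 members were called on log2(FPKM + 1) and 3 on log2(FPKM + 0.1). All genes called then went from 2728 to 1613 and 1308. With limma-trend the share of members was thus close to that of all genes. Over the 38 members the difference fell with exon GC content (Spearman's rho -0.591), and Pearson's r was -0.472 over members and -0.432 over all genes. WFS1 differed most, by -1.34 ± 0.31, and MANF by -0.63 ± 0.15, DERL1 by -0.52 ± 0.12 and PDIA5 by -0.61 ± 0.15, while XBP1 differed by 0.64 ± 0.15 in the other direction. These 5 were called after GC correction as well, when 13 members were called (34.2% against 26.1% of all genes), whereas EDEM2, SYVN1, CALR, HYOU1 and PDIA4 were not. The count ranged from 0 without MiaPaCa2 control replicate 1 to 17 without PANC1 control replicate 2. The genistein response differed in 0 members by limma-voom and edgeR and 1 by DESeq2, against 0.0336% of all genes (0.0056% higher and 0.028% lower) by limma-voom. For it 4 of 38 members had an unadjusted p under 0.05, beside 11.5% of all genes.

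GC content is a property of the messengers along which libraries of these groups were shifted. The slope of log2 CPM on GC, per 10 percentage points, was -0.23 and -0.14 in MiaPaCa2 control libraries, 0.14 and 0.05 with gemcitabine, 0 and -0.16 with genistein and 0.05 and 0.29 with both. The slopes with gemcitabine all lay above the MiaPaCa2 controls. In PANC1 the slopes were 0.29 and -0.07 in control libraries and 0.05 and -0.13 with gemcitabine, so the controls differed from each other. Over members the log2 change with gemcitabine rose with exon GC content in MiaPaCa2 (Spearman's rho 0.427, n = 37) and fell in PANC1 (rho -0.548, n = 38), a description over genes that share libraries. Pearson's r was 0.467 over members and 0.372 over all genes in MiaPaCa2, and -0.328 and -0.228 in PANC1. The trend was thus not particular to the members. After GC correction 7 members were called with gemcitabine in MiaPaCa2, 18.9% against 28.6% of all genes in the same fit, of which WFS1, HERPUD1 and ERO1LB were shared with the uncorrected calls, and EIF2AK3 (0.42), DNAJB9 (0.59), DERL1 (0.44) and SEC24D (0.43) were added. In PANC1 the 3 calls were kept, the total was 6 (15.8% against 18.5% of all genes) and ERN1 (0.45), EIF2AK3 (0.47) and DERL3 (1.07) were added.

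**Figure D4:**
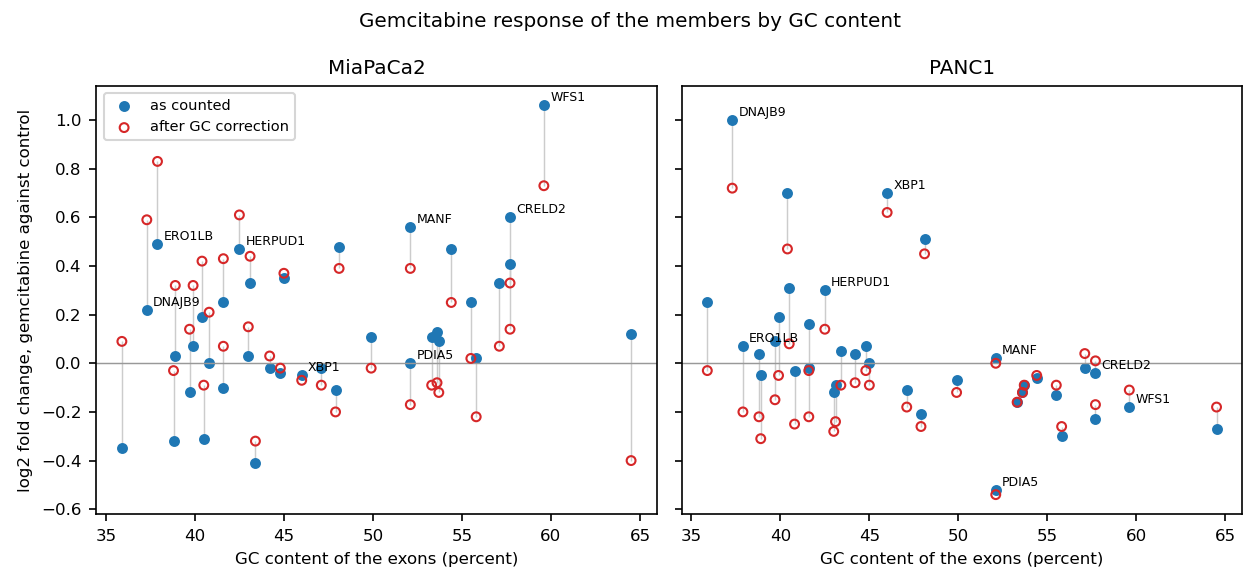
The horizontal axis is exon GC content in percent, by member, and the vertical axis the log2 fold change with gemcitabine, as counted (blue) and after GC correction (red circles), with DERL3 left out. In MiaPaCa2 the correction lowers WFS1 from 1.06 to 0.73 and raises ERO1LB from 0.49 to 0.83.

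A list of 18 genes of the PERK, ATF4 and CHOP branch, which signals beside the members, was counted in the same way. It was chosen with earlier results of these data known, so its shares describe the list and are not a test. In PANC1 genistein raised 4 of its 18 genes and lowered 0, 22.2% against 0.0591% of all genes, with a list median of 0.54 against 0.05. These 4 calls rested on every control, genistein and gemcitabine library of PANC1, since 0 remained without any 1 of them, and DESeq2 called 8 and the GC-corrected fit 15, all higher. With replicate number added to the model as a block, 0 of the 4 remained. In MiaPaCa2 genistein raised 3 of 17 and lowered 0, 17.6% against 8.31%, and 0 were called without control replicate 1 and 1 without control replicate 2. With both drugs 8 rose and 1 fell of 17 in MiaPaCa2, 52.9% against 40.5% of all genes, and 10 rose and 1 fell of 18 in PANC1, 61.1% against 17.1%. With gemcitabine 4 rose and 3 fell in MiaPaCa2, 41.2% against 29.6%, and 4 rose and 1 fell in PANC1, 27.8% against 7.52%. The gemcitabine calls became 4 in MiaPaCa2 without control replicate 1 (2 higher and 2 lower), and in PANC1 2 without gemcitabine replicate 1 and 3 without replicate 2, all higher. After GC correction 2 were higher and 5 lower with gemcitabine in MiaPaCa2. These counts leave out SLC7A11, which passed the adjusted p and fold thresholds in MiaPaCa2 but not that of FPKM in treated cells. It fell by -1.36 ± 0.18 with genistein, -1.95 ± 0.20 with gemcitabine and -2.14 ± 0.22 with both drugs. VLDLR, which rose by 1.02 ± 0.21 with both drugs in PANC1, was left out of the PANC1 count in the same way.

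DDIT3 encodes CHOP, a factor linked to cell death under prolonged stress. It had 24.2 and 27 CPM (without TMM) in PANC1 control cells, 135 and 139 with gemcitabine, 58 and 53.2 with genistein and 225 and 203 with both. All treated libraries exceeded the controls. The changes were 2.30 ± 0.11 with gemcitabine, 1.10 ± 0.13 with genistein (adjusted p = 0.0499) and 2.90 ± 0.11 with both. In MiaPaCa2 DDIT3 had 9.26 and 9.45 in control cells and 11.8 and 10.4 with gemcitabine, a change of 0.14 ± 0.16, and it rose by 0.89 ± 0.15 with genistein. ATF3, a stress-induced factor, rose by 1.98 ± 0.30 with gemcitabine in MiaPaCa2 and by 4.03 ± 0.14 in PANC1. ASNS, which makes asparagine and is a target of ATF4, rose with genistein by 0.45 ± 0.08 in MiaPaCa2 and 1.10 ± 0.09 in PANC1. ATF4 itself fell with gemcitabine in MiaPaCa2, by -0.83 ± 0.09, and rose with genistein in PANC1, by 0.85 ± 0.10. PPP1R15A, which restores translation, rose with gemcitabine by 0.55 ± 0.12 in MiaPaCa2 and 1.68 ± 0.18 in PANC1, and TRIB3 was not called with any treatment by limma-voom. Other genes of the list fell. DDIT4 was lower in PANC1 by -1.43 ± 0.18 with gemcitabine and -1.10 ± 0.18 with both drugs, and PSAT1 was lower by -0.71 ± 0.09 with gemcitabine in MiaPaCa2.

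**Figure D5:**
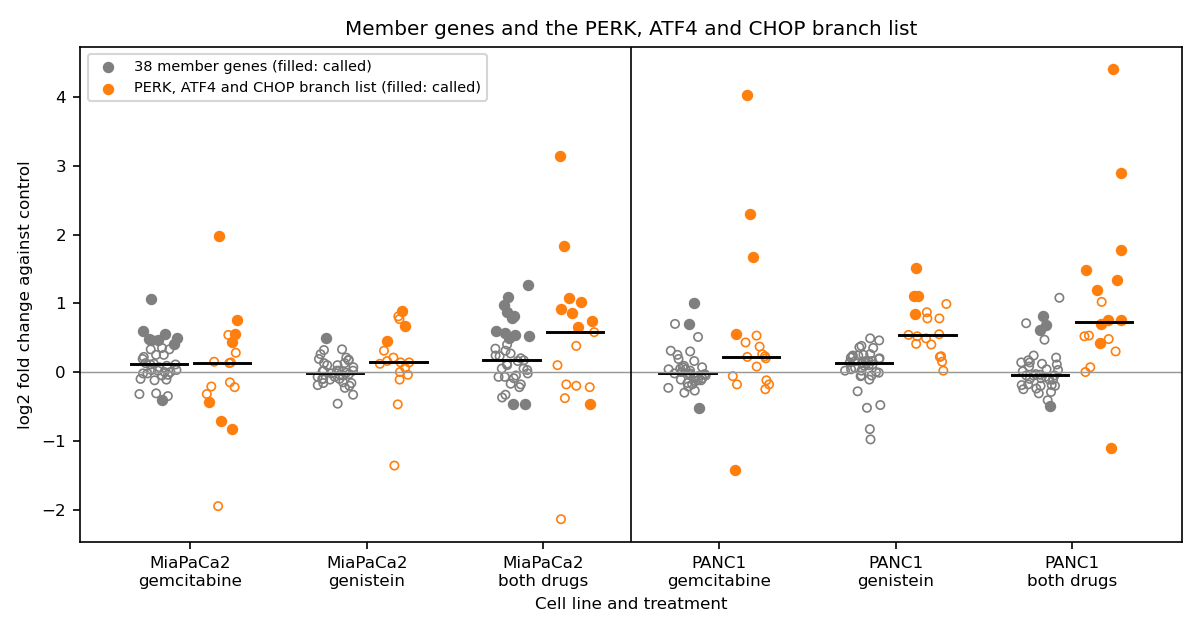
Each circle is the log2 fold change of a gene against the control of its line, gray for the members and orange for the branch list, filled where called, with the median as a bar. In PANC1 with genistein the list median is 0.54 and that of the members 0.13.

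The 5 further lists were counted likewise. Beside the shares given here stand 29.6% of all genes called with gemcitabine in MiaPaCa2, 8.31% with genistein in MiaPaCa2 and 7.52% with gemcitabine in PANC1. Of the 14 other sensors and transcription factors, gemcitabine raised 2 and lowered 4 in MiaPaCa2 (42.9%) and lowered 1 in PANC1 (7.14%), and genistein lowered 2 in MiaPaCa2 (14.3%). Of 28 translocon, signal sequence and glycosylation genes, gemcitabine lowered 5 in MiaPaCa2 (17.9%) and 1 in PANC1 (3.57%). Of 25 other degradation genes, gemcitabine lowered 1 in each line (4% in each) and genistein raised 1 in MiaPaCa2 (4%). Of 37 other folding enzymes, gemcitabine raised 4 and lowered 2 in MiaPaCa2 (16.2%) and lowered 1 of 36 in PANC1 (2.78%), and genistein raised 2 and lowered 1 in MiaPaCa2 (8.11%). Of 27 genes of ER to Golgi transport, gemcitabine raised 1 and lowered 4 in MiaPaCa2 (18.5%), and genistein raised 1 and lowered 1 (7.41%). The share called was above that of all genes for the sensors and transcription factors with either drug in MiaPaCa2, and below it for every other share in this paragraph up to here. With genistein in PANC1 these 5 lists held 0 calls by limma-voom, against 0.0591% of all genes. With both drugs in MiaPaCa2 the lists, in this order, held 3 higher and 4 lower, 1 higher and 7 lower, 4 higher and 3 lower, 7 higher and 5 lower, and 3 higher and 8 lower (50%, 28.6%, 28%, 32.4% and 40.7%, against 40.5% of all genes). In PANC1 they held 0 higher and 1 lower, 0 higher and 1 lower, 1 higher and 3 lower, 1 higher and 2 lower, and 2 higher and 1 lower (7.14%, 3.57%, 16%, 8.33% and 11.1%, against 17.1% of all genes).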

How the data were processed

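RNA sequencing of 16 poly-A libraries was analysed (TruSeq Stranded kit, per the labels). Deposited per-gene counts are whole numbers without normalization, which the authors made on GRCh37 with TopHat2 2.0.4, Picard 1.29 and HTSeq 0.6.1, tools named in the submitters' processing notes. The authors also deposited FPKM per gene from Cufflinks 2.1.1, scaled to transcript length and library size, and these were used to compare levels between genes. FPKM per isoform were not used. The annotation release and strand setting are not given in the sources used here.

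Counts were normalized with TMM (edgeR 4.0.16), filtered with filterByExpr and fitted by limma-voom in R 4.3.3 (limma version 3.58.1), with 1 mean per group over the 8 libraries of a line, or over all 16 for comparisons between lines. P values were adjusted by Benjamini-Hochberg over all genes tested. Interactions and differences between lines were judged by the adjusted p alone. Normalized CPM use TMM library sizes. Exon GC content and overlaps came from GENCODE v44 lifted to GRCh37, which need not be the authors' release. GC correction removed a loess trend (span 0.3, degree 1) from each library. DERL3 was compared with a floor of 3 counts per library, for counting error only. The procedure was tested on simulated data for genistein against control, by the adjusted p alone. It recovered 41.8% of 1.5-fold and 78.5% of 2-fold changes in MiaPaCa2, and 6.15% and 43.1% in PANC1.

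All members may be named, with values per library for those called against control. From the other lists, ATF4, DDIT3, TRIB3, ASNS, PPP1R15A and, per list and single drug, up to 2 rising and 2 falling called genes could be named. SLC7A11 was named as well, because it passed the adjusted p and fold thresholds but not that of FPKM. The members and lists were chosen with earlier results of these data known. The labels number the replicates without saying whether the numbers pair libraries. Correlations of deviations ran from -0.569 to 0.331, and from -0.217 to 0.0598 after GC correction. They cannot exclude pairing, because differences between libraries such as the GC slope enter them too, so the block was an alternative. Other alternatives were edgeR's quasi-likelihood test, DESeq2 1.42.0, its size factors, library size alone, no low-count filter, limma-trend on log2(FPKM + 1) or log2(FPKM + 0.1), the adjusted p alone and each library left out in turn.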

Additional observations from a re-analysis of the deposited data

Results flagged for a closer look

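The gemcitabine response of 10 of 38 members, 26.3% against 15.3% of all genes, differed between the lines by a test of the difference itself (limma-voom over 16 libraries, PANC1 minus MiaPaCa2 on the log2 scale). WFS1 differed by -1.34 ± 0.31 (adjusted p = 0.0131), SYVN1 by -0.74 ± 0.22 (adjusted p = 0.0358), MANF by -0.63 ± 0.15 (adjusted p = 0.0154), EDEM2 by -0.62 ± 0.16 (adjusted p = 0.0229) and PDIA5 by -0.61 ± 0.15 (adjusted p = 0.0188). DERL1 differed by -0.52 ± 0.12 (adjusted p = 0.0135), CALR by -0.48 ± 0.14 (adjusted p = 0.0334), HYOU1 by -0.42 ± 0.12 (adjusted p = 0.0344) and PDIA4 by -0.36 ± 0.10 (adjusted p = 0.0351). XBP1 differed by 0.64 ± 0.15 (adjusted p = 0.0164), the only value above 0. WFS1, MANF and XBP1 were called in each of the 10 alternatives that kept all libraries, and with 1 of the 16 libraries left out in turn they were called in 13, 13 and 12 of 16 fits. CALR, HYOU1, PDIA4 and SYVN1 were each called in 5 of the 10 alternatives, and were lost with limma-trend on FPKM, the replicate block and GC correction. EDEM2 was called in 6, DERL1 in 8 and PDIA5 in 9 of the 10.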

How the results depend on the processing

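Counts of members called moved by more than 1.5 times in these settings. With gemcitabine in MiaPaCa2, 9 became 15 by the adjusted p alone and 5 with limma-trend on log2(FPKM + 1). There all genes called went from 4747 to 6263 and 3193. With genistein in MiaPaCa2, 1 became 0 with library size alone, no low-count filter and limma-trend on FPKM at either pseudocount. In these settings all genes called went from 1335 to 1256, 1000, 229 (pseudocount 1) and 257 (pseudocount 0.1). For both drugs against gemcitabine in MiaPaCa2, 2 became 4 by the adjusted p alone and 0 with limma-trend at either pseudocount. With gemcitabine in PANC1, 3 became 5 with DESeq2 and 6 with GC correction, with or without the replicate block, and 1 with the replicate block alone. With genistein in PANC1, 0 became 1 with DESeq2 and 1 with GC correction (SEC61B, -0.43). For the difference in gemcitabine response, 10 became 4 with limma-trend on log2(FPKM + 1), 3 on log2(FPKM + 0.1) and 6 with the replicate block. All genes called for it went from 2728 to 1613, 1308 and 1571 in these settings. For the difference in genistein response, 0 became 1 with DESeq2 and 1 with GC correction (WFS1, -0.55), while all genes called went from 6 to 186 and 460. HSPA13 with both drugs in MiaPaCa2 reversed to 0.22 with GC correction and 0.23 with the block added. Apart from the member counts named, the replicate block moved no member count by over 1.5 times. In PANC1 it ended the gemcitabine calls of DNAJB9 and PDIA5 and the combination call of PDIA5, and with genistein it took the calls from 10 to 0 of all genes and from 4 to 0 in the PERK, ATF4 and CHOP list, which had 15 calls with GC correction, with or without the block. The causes were not tested. Among all genes, those called with genistein in PANC1 numbered 10 by limma-voom, 739 by DESeq2 and 1222 after GC correction, and for both drugs against gemcitabine in PANC1 3, 208 and 1242. With gemcitabine in PANC1 they numbered 1272, and the replicate block left 535 while DESeq2 gave 1694 and GC correction 3127 (2940 with the block).

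With each library left out, calls ran from 4 to 9 with gemcitabine in MiaPaCa2 (5 without gemcitabine replicate 1, 4 without control replicate 1), 0 to 1 with genistein (0 without any library of the control, gemcitabine or genistein groups), 0 to 3 for both drugs against gemcitabine (0 without gemcitabine replicate 1, 1 without replicate 2), 12 to 16 for both against control and 0 to 0 for the interaction. In PANC1 they ran from 0 to 5 with gemcitabine (0 without either genistein or either gemcitabine library, 5 without control replicate 2), 2 to 5 for both against control (2 without either genistein library or both-drugs replicate 2), and 0 to 0 for genistein, both against gemcitabine and the interaction. The untreated comparison gave 18 to 21 and the difference in genistein response 0 to 0. The difference in gemcitabine response gave 0 to 17, with 0 without MiaPaCa2 control replicate 1, 1 without PANC1 gemcitabine replicate 2, 2 without MiaPaCa2 control replicate 2, 3 without either MiaPaCa2 gemcitabine library, 5 without PANC1 control replicate 1, 6 without MiaPaCa2 genistein replicate 2 or either PANC1 genistein library and 17 without PANC1 control replicate 2.

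Library size alone shifted the median log2 change of all genes by 0.107 with gemcitabine in MiaPaCa2, 0.111 in PANC1, 0.158 with both drugs in PANC1 and 0.101 for the difference in gemcitabine response. Members called higher and lower then became 11 and 0, 4 and 0, 5 and 0, and 1 and 9. The share higher among all called genes moved from 50.6% to 66.5% in MiaPaCa2 and from 59.7% to 78.6% in PANC1 with gemcitabine, and to 79.9% with both drugs in PANC1.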
